A study of Mus musculus with 2 samples.

Results

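The microRNA (miRNA) genes that lie inside the 4 Hox gene clusters were examined in the neonatal mouse heart. They were the 6 genes Mir10a, Mir10b, Mir615, Mir196a-1, Mir196a-2 and Mir196b, taken by their GENCODE M21 symbols out of 2202 miRNA genes in the count tables. The 2 libraries came from heart tissue of male B6CASTF1/J mice, hybrids of the first generation between C57BL/6J and CAST/EiJ, aged 4 days, with no treatment and no other genotype given in the labels. The animals are described as male 03 (replicate 1) and male 04 (replicate 2) and numbered as biological replicates, but they share a donor identifier. If the RNA came from the same animal, the spread between the libraries is technical. There is a single group, so the values describe a profile and the difference between these libraries, and no condition was compared.

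Hox genes encode homeodomain transcription factors that give cells their position along the head-to-tail axis, and in each cluster the genes with low numbers are expressed further forward than those with high numbers. The miRNA genes keep fixed places in the clusters. The miR-10 genes lie near the Hox4 genes, miR-615 lies in an intron of Hoxc5, and the miR-196 genes lie near the Hox9 genes, on the side of Hox10 and higher numbers. A miRNA recognises its target mRNAs mainly through its seed, bases 2 to 8 from the 5′ end. The miR-10 and miR-196 families are known to act on Hox mRNAs, and miR-10 miRNAs are also known from endothelial cells.

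The mature sequences show which of these genes can be told apart by their reads. They are taken from RefSeq (GRCm38.p6), which held mature sequences for all 6 genes, and each is written 5′ to 3′ with its seed in capitals. The 5p arms of Mir10a and Mir10b have the same seed, and so do those of the 3 Mir196 genes.
miR-10a-5p: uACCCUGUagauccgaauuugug
miR-10b-5p: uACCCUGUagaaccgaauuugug
miR-196a-5p: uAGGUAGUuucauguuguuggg
miR-196b-5p: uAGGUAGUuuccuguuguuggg
miR-615-3p: uCCGAGCCugggucucccucuu
miR-615-5p: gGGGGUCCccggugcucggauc

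With positions counted from 1 at the 5′ end and the base of the first-named miRNA given first, miR-10a-5p and miR-10b-5p differed by 1 substitution, U12A. Likewise miR-196a-5p and miR-196b-5p differed by A12C alone. The 3p arms of Mir10a and Mir10b differed at 3 positions (A3G, U9A and A10U), one of them in the seed. No other mature miRNA in the RefSeq table carried the seed of any arm of the 6 genes.

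Mir196a-1 and Mir196a-2 make the same 22-base miR-196a-5p, and this decides how far their counts can be read. Their hairpins are printed here with the longest stretch they share in capitals, which is exactly the mature miRNA and no base more.
Mir196a-1 hairpin: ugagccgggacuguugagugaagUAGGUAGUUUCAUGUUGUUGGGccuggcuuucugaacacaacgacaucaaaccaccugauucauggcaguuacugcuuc
Mir196a-2 hairpin: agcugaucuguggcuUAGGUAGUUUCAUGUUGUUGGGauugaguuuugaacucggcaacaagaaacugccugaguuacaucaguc

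A read of the exact mature miR-196a-5p, or of a shorter form of it, matches both hairpins equally. Reads that match several places are counted in the tables as multi-mapped and belong to no gene. A search of all 2202 hairpins for shared windows of 20 bases found 3 windows common to Mir196a-1 and Mir196a-2. It found none for Mir10a, Mir10b, Mir615 and Mir196b. The longest run shared by the Mir10a and Mir10b hairpins was 15 bases, and that shared by Mir196a-2 and Mir196b was 12 bases. The gene counts of Mir196a-1 and Mir196a-2 may therefore miss reads of miR-196a, while those of the other 4 genes do not have this overlap among annotated hairpins.

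Positions are in the mm10 build. Mir10a (ENSMUSG00000065519.1, chr11:96317165-96317274, plus strand) is intergenic in the Hoxb cluster, 992 bases upstream of Hoxb4 and 11043 bases downstream of Hoxb5. Mir10b (ENSMUSG00000065500.3, chr2:74726070-74726137, plus strand) lies in introns of Hoxd3 and Hoxd4 transcripts. Mir615 (ENSMUSG00000076010.1, chr15:103014910-103015001, plus strand) lies in an intron of the coding Hoxc5 transcript. Mir196a-1 (ENSMUSG00000065546.1, chr11:96265164-96265265, plus strand) is intergenic, 6191 bases upstream of Hoxb9. Mir196a-2 (ENSMUSG00000065488.2, chr15:102973350-102973434, plus strand) is 1456 bases downstream of Hoxc10 and 3004 bases upstream of Hoxc9, inside an intron of a long non-coding Hoxc5 transcript. Mir196b (ENSMUSG00000065443.1, chr6:52230081-52230165, minus strand) lies within the annotated Hoxa9 gene, in an exon of 2 of its non-coding transcripts and in an intron of another, 1031 bases downstream of Hoxa10. All 6 lie on the coding strand of their cluster. The only other miRNA gene annotated between the outermost Hox genes was Gm44463, on the opposite strand of the Hoxd cluster between Hoxd9 and Hoxd8.

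**Figure D1:**
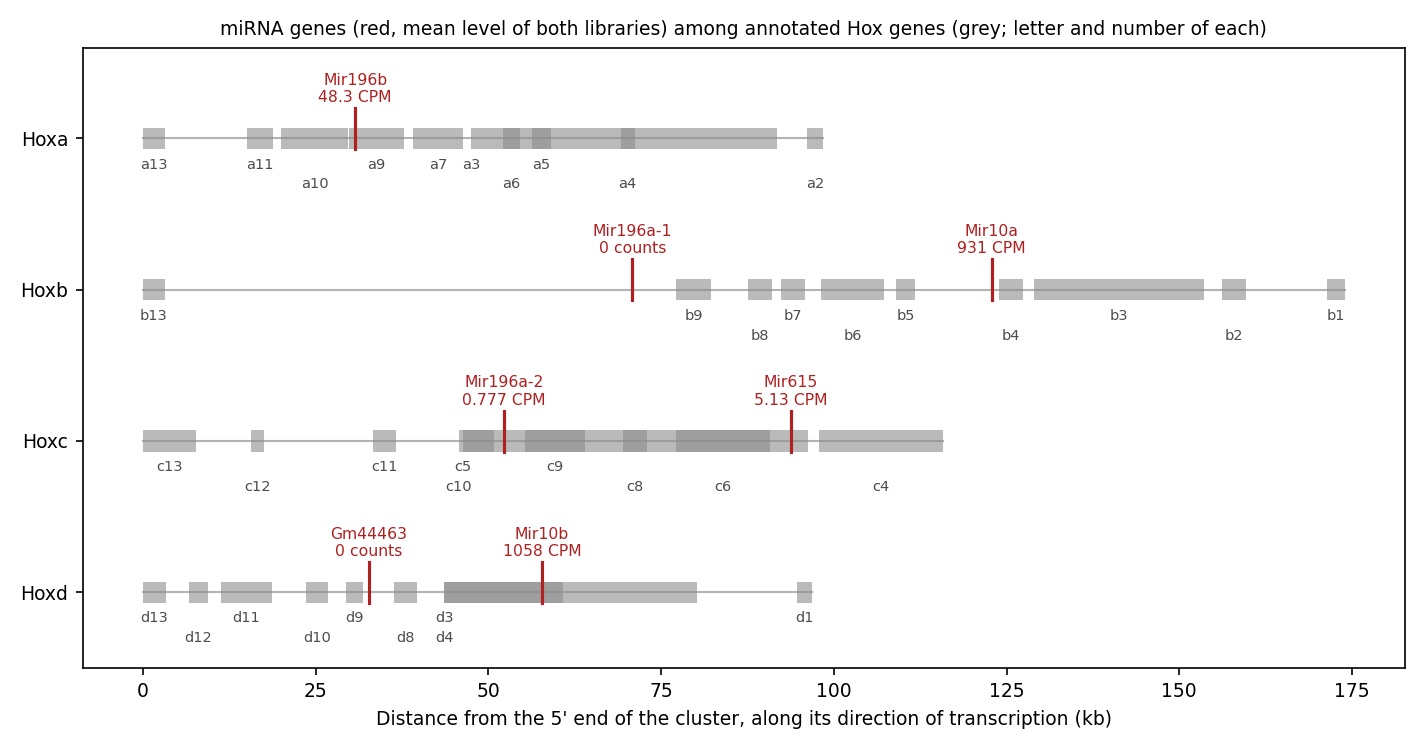
Hox genes (grey bars, labelled by cluster letter and number) and miRNA genes (red lines) of the 4 clusters, by distance in kb from the 5′ end of each cluster along its direction of transcription; red text gives the mean level of both libraries in CPM (sense counts per 1000000 sense counts of the library). Mir10a and Mir10b, at 931 and 1058 CPM, stand near Hoxb4 and Hoxd4, and Mir196a-1, Mir196a-2, Mir615 and Mir196b stand at 48.3 CPM or less.

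Sense counts, those on the gene's own strand, totalled 4196577 in replicate 1 and 3801738 in replicate 2, so that 1 read was worth 0.238 and 0.263 CPM. Multi-mapped reads, which are not in it, made up 38.1% and 42.3% of all reads. The heart label was checked with 7 cardiomyocyte genes. Of the miRNAs in introns of cardiac myosin genes, Mir208a stood at 2091 and 1259 CPM, Mir208b at 5169 and 2965 CPM and Mir499 at 5794 and 4633 CPM in replicates 1 and 2. The other 4 had few reads assigned. Mir1a-2 stood at 33.1 and 54.4 CPM and Mir133a-1 at 2.62 and 7.63 CPM. Mir1a-1 stood at 2.38 and 3.42 CPM and Mir133a-2 at 1.67 and 1.32 CPM. Multi-mapped reads are in none of these values, and how many came from these 4 genes was not measured. The values may therefore fall short of the levels of miR-1 and miR-133a in the heart. The intervals given for shares (95% Wilson) and ratios (95% exact binomial) cover counting error only and treat each read as independent. Reads of an amplified library are not independent molecules, so the intervals may be too narrow.

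Among the reads assigned to a gene, the Hox cluster miRNAs were a small part of the heart profile, and nearly all of that part was miR-10. Reads that match both Mir196a genes are in none of these shares, and how many there were was not measured. Together the 6 genes held 5028 of the sense counts in replicate 1, a share of 0.120% (0.117 to 0.123), and 10980 in replicate 2, a share of 0.289% (0.283 to 0.294). Mir10a and Mir10b made up 95.3% of these counts in replicate 1 and 98.2% in replicate 2. Mir196b made up 4.22% and 1.59%, and Mir615 made up 0.418% and 0.182%. All 6 genes had 0 counts on the opposite strand in both libraries, and their counts without regard to strand equalled the sense counts.

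Mir10a, the miR-10 gene of the Hoxb cluster, had 2756 counts (657 CPM) in replicate 1 and 4585 counts (1206 CPM) in replicate 2. Its mean level was 931 ± 388 CPM (SD, n = 2), and it ranked 94th and 63rd of 2202 genes. Mir10b, its counterpart in the Hoxd cluster, had 2038 counts (486 CPM) in replicate 1 and 6195 counts (1630 CPM) in replicate 2. Its mean level was 1058 ± 809 CPM (SD, n = 2), with ranks of 106 and 56. Both genes were higher in replicate 2. Their means lie closer together than the SD of either, so the libraries set no order between them.

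The order of the miR-10 paralogs changed between the libraries. Mir10b had 0.739 reads (0.698 to 0.783) for each read of Mir10a in replicate 1 and 1.35 reads (1.30 to 1.40) in replicate 2. On the log2 scale the ratio of Mir10b to Mir10a was -0.44 in replicate 1 and 0.43 in replicate 2, with a mean of -0.00062 ± 0.61 (SD, n = 2). This ratio does not depend on how the libraries are scaled. Its counting intervals do not overlap between the libraries. With 2 libraries, the spread that a group of animals would show was not measured.

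Mir196b, the miR-196 gene of the Hoxa cluster, had 212 counts (50.5 CPM) in replicate 1 and 175 counts (46.0 CPM) in replicate 2. Its mean level was 48.3 ± 3.17 CPM (SD, n = 2), with ranks of 208 and 201, and its levels in the 2 libraries were close. The miR-10 genes together had 22.6 reads (19.7 to 26.1) for each Mir196b read in replicate 1 and 61.6 (53.1 to 71.9) in replicate 2. These are ratios of reads, each from a mature miRNA of similar length, so no scaling by gene length was applied.

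The Mir196a genes had almost no reads assigned. Mir196a-1 of the Hoxb cluster had 0 counts in both libraries. Its share had an upper Wilson bound of 9.15e-05% in replicate 1 and 1.01e-04% in replicate 2. The level of 3 counts, at which it is drawn, was 0.715 CPM in replicate 1 and 0.789 CPM in replicate 2. Mir196a-2 of the Hoxc cluster had 1 count (0.238 CPM) in replicate 1 and 5 counts (1.32 CPM) in replicate 2. Replicate 2 stood 5.52-fold higher with a counting interval of 0.618 to 261, so no difference was detectable at this depth. Reads of the exact or a shorter miR-196a-5p match both genes, and how many such reads were left out of both counts was not measured, so these values do not give the level of miR-196a in the heart.

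Mir615, which is read out of the Hoxc5 intron, had 21 counts (5.00 CPM) in replicate 1 and 20 counts (5.26 CPM) in replicate 2, a mean of 5.13 ± 0.181 CPM (SD, n = 2). Its ranks were 319 and 305. Mir196b had 10.1 reads (6.44 to 16.6) for each Mir615 read in replicate 1 and 8.75 (5.50 to 14.7) in replicate 2. The order of levels was thus Mir10a and Mir10b, whose places were not fixed, then Mir196b, then Mir615, in both libraries. The annotated neighbour Gm44463 had 0 counts in both libraries.

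By cluster, Hoxa was represented by Mir196b alone at 48.3 ± 3.17 CPM. Hoxb had 931 ± 388 CPM, all of it from Mir10a, and Hoxd had 1058 ± 809 CPM, all of it from Mir10b. Hoxc, with Mir615 and Mir196a-2, had 5.24 CPM in replicate 1 and 6.58 CPM in replicate 2. Within each cluster that holds 2 of the 6 genes, the one nearer the low-numbered Hox genes had more reads assigned: Mir10a had 2756 and 4585 counts against 0 and 0 for Mir196a-1, and Mir615 had 21 and 20 against 1 and 5 for Mir196a-2. In both pairs the gene with fewer reads is the one whose mature miRNA matches 2 places.

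**Figure D2:**
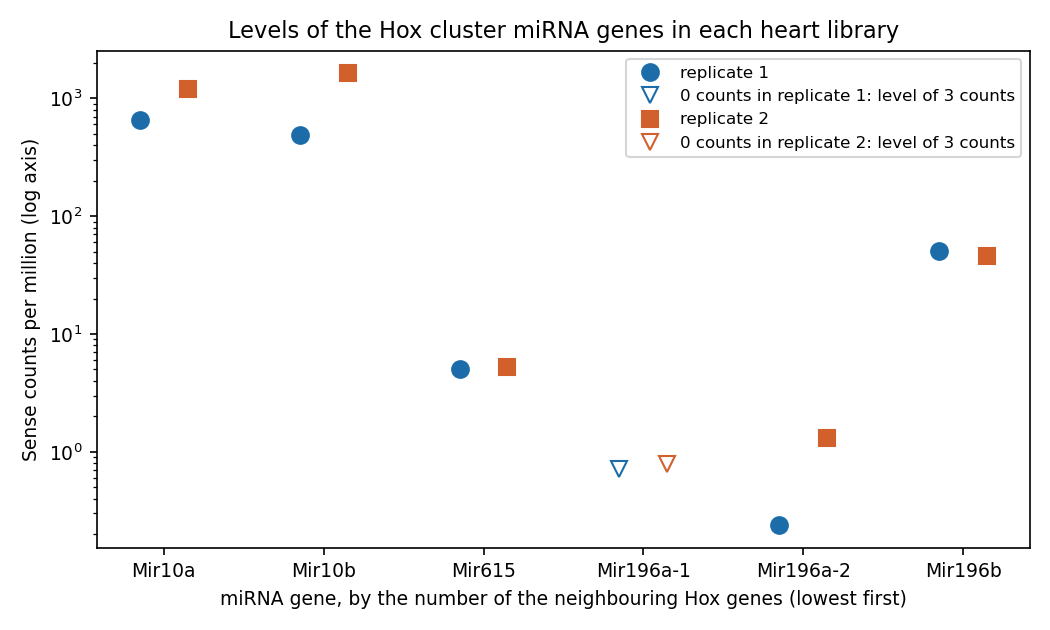
Level of each of the 6 genes in replicate 1 (circles) and replicate 2 (squares), in CPM of sense counts on a log axis; open triangles mark 0 counts and stand at the level of 3 counts, above the 1 count of Mir196a-2 in replicate 1. Mir10a and Mir10b go from 657 and 486 CPM in replicate 1 to 1206 and 1630 CPM in replicate 2, whereas Mir196b stays between 46.0 and 50.5 CPM and Mir615 between 5.00 and 5.26 CPM.

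The libraries were then compared gene by gene by Fisher's exact test (two-sided) on counts, Benjamini-Hochberg adjusted over the 441 genes with 10 or more counts in both libraries together. This test compares 2 libraries with counting error as the only error. Mir10a, Mir10b, Mir196b and Mir615 were tested, and Mir196a-1 and Mir196a-2 had too few counts. Of these 4, Mir10a and Mir10b passed the threshold of 0.05, both higher in replicate 2, and 0 were lower. Over all tested genes 56.9% passed, 20.4% as higher and 36.5% as lower in replicate 2, so passing was common and 2 of 4 is near that background.

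Mir10b was 3.36-fold higher in replicate 2 (3.19 to 3.53), a log2 ratio of 1.74 on the log2(CPM + 1) scale, with an adjusted p of at most 1.52e-299 by Fisher's exact test. Mir10a was 1.84-fold higher (1.75 to 1.93), a log2 ratio of 0.88 with an adjusted p of 1.97e-144 by Fisher's exact test. Mir196b had a log2 ratio of -0.13 (fold 0.911, 0.742 to 1.12, adjusted p = 0.488), which turned to 0.17 with TMM scaling and 0.14 with DESeq2 size factors. Mir615 had a log2 ratio of 0.06 (fold 1.05, 0.541 to 2.04, adjusted p = 0.912), and its interval allows a difference of 2-fold. The median log2 ratio was 0.47 over the 4 genes and -0.26 over all tested genes.

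Where the mean count was 100 or more (243 genes), 12 had a log2 ratio at or above that of Mir10a, itself included, and 5 exceeded Mir10b. They were Mir26a-1, Mir140, Mir669e, Mir145a and Mir203, named here after their values were seen, at 3.29, 2.35, 2.27, 2.00 and 1.97. edgeR's exact test, which adds a spread between libraries estimated from the same 2 libraries, gave an unadjusted p of 0.0118 for Mir10b and 0.137 for Mir10a. Its adjusted p was 0.434 for Mir10b and 1 for Mir10a, so neither passed. It called 2 of 441 genes, Mir9-3 and Mir26a-1, and 23 had an unadjusted p under 0.05.

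**Figure D3:**
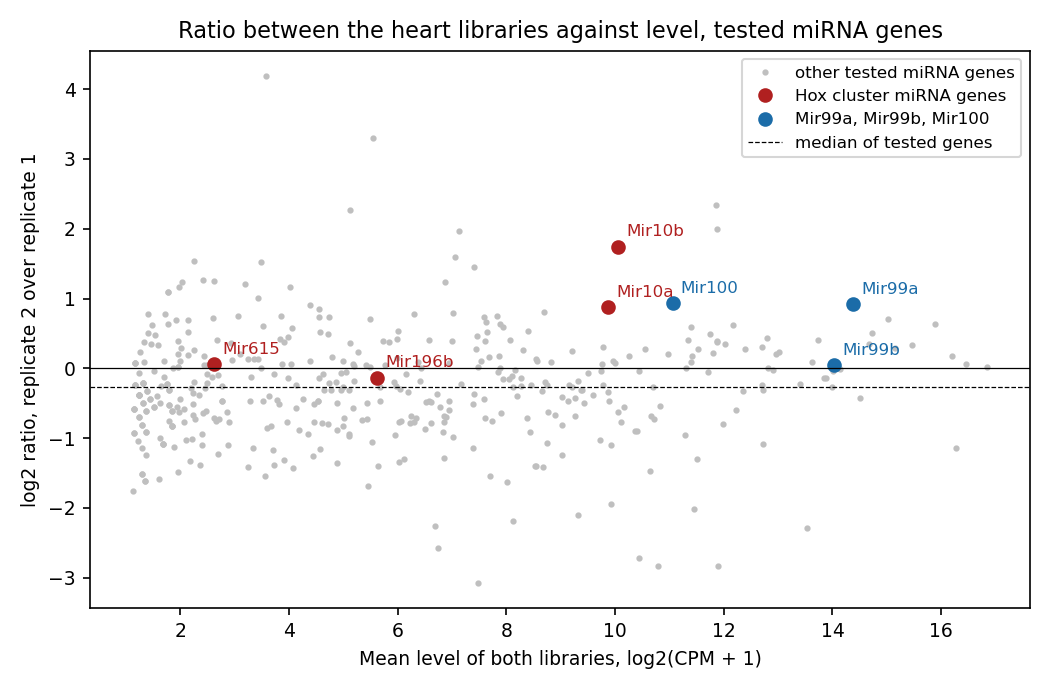
Log2 ratio of replicate 2 over replicate 1 against the mean level of both libraries for the 441 tested miRNA genes (grey points), with the 4 tested Hox cluster genes in red and Mir99a, Mir99b and Mir100 in blue; the dashed line is the median of all tested genes at -0.26. Mir10b (1.74) and Mir10a (0.88) lie above the dashed line by more than Mir196b and Mir615 do, and Mir196b (-0.13) and Mir615 (0.06) lie near 0.

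The closest relatives of miR-10 outside the Hox clusters are the miR-99 and miR-100 miRNAs, whose genes lie beside let-7 and miR-125 genes. Their 5p arms are printed to show what they share with miR-10, again with the seed in capitals.
miR-99a-5p: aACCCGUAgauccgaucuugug
miR-99b-5p: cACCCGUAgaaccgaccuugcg
miR-100-5p: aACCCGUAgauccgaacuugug

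Their seed, ACCCGUA, is not that of miR-10, ACCCUGU. Their hairpins shared runs of 11 bases (Mir10a with Mir100), 10 bases (Mir10a with Mir99a) and 10 bases (Mir10b with Mir99b), too short to place a whole mature read on the wrong gene without mismatches. Mir100 had 6136 and 10645 counts (1462 and 2800 CPM) in replicates 1 and 2. Mir99a had 14810 and 28083 CPM, and Mir99b had 16420 and 16905 CPM. The 3 genes together had 28.6 reads (27.8 to 29.5) for each miR-10 read in replicate 1 and 16.9 (16.5 to 17.2) in replicate 2.

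Their log2 ratios between the libraries, set beside those of Mir10b (1.74) and Mir10a (0.88), were 0.94 for Mir100, 0.92 for Mir99a and 0.04 for Mir99b. Mir100 had 2.23 reads (2.13 to 2.33) for each Mir10a read in replicate 1 and 2.32 (2.24 to 2.40) in replicate 2, and these intervals overlap. For each Mir10b read it had 3.01 (2.86 to 3.17) and 1.72 (1.67 to 1.77). The ratio of Mir100 to Mir10a thus differed between the libraries by less than its counting intervals, and that of Mir100 to Mir10b by more.

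Genes most like each member were taken as the 3 tested genes with the smallest distance in log2 CPM over the 2 libraries. For Mir10a these were Mir872, Mir455 and Mir382 at distances of 0.41 to 0.60. The same 3 genes were nearest to Mir10b at the larger distances of 1.02 to 1.19. Mir872, the nearest, had 780 and 966 CPM against 486 and 1630 CPM for Mir10b. Mir667, Mir222 and Mir137 were nearest to Mir196b, at 0.12 to 0.25. Mir211, Mir1960 and Mir1291 were nearest to Mir615, at 0.17 to 0.21. With 2 libraries such a distance mostly compares levels.

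Markers of cell types that a heart sample could hold also differed between the libraries. Fewer cells of a type and less RNA per cell cannot be told apart in whole tissue. The endothelial list (Mir126a, Mir126b, Mir221 and Mir222) summed to 109519 CPM in replicate 1 and 49773 CPM in replicate 2, nearly all of it Mir126a at 109199 and 49330 CPM. Of its 3 tested genes Mir126a was lower in replicate 2, Mir221 was higher (275 and 399 CPM) and Mir222 was not called (43.8 and 44.5 CPM). Mir126b had 3 and 0 counts. The smooth muscle markers Mir143 and Mir145a were both higher in replicate 2 and summed to 48576 and 79468 CPM. The 7 cardiomyocyte genes summed to 13094 and 8924 CPM, with Mir1a-2 and Mir133a-1 higher and Mir208a, Mir208b and Mir499 lower in replicate 2.

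Of the neuron list, Mir9-3 had 1 count in replicate 1 and 82 in replicate 2. Mir9-1 had 0 and 2 counts, and Mir9-2, Mir124a-1, Mir124a-2 and Mir124a-3 were at 0 in both. The sum of this list thus rests almost wholly on Mir9-3. Multi-mapped reads are in none of the marker counts, so 0 counts of a marker gene do not show that its miRNA was absent. The skin markers summed to 61.2 and 222 CPM, with Mir203 higher and Mir205 lower in replicate 2. Leukocyte markers summed to 1478 and 1542 CPM, with 3 of 4 higher and 1 lower, and fibroblast markers to 18397 and 16399 CPM, with 1 of 3 tested genes higher, 2 lower and Mir199a-1 at 0. Erythroid markers summed to 493 and 400 CPM with 0 of 3 higher and 2 lower, epithelial markers to 299 and 354 CPM with 2 of 5 higher and 1 lower, and the liver marker Mir122 fell from 309 to 105 CPM. Skeletal muscle markers, 34.1 and 40.0 CPM, had 0 of 2 called. The part of any of these cell types in the miR-10 difference was not tested.

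**Figure D4:**
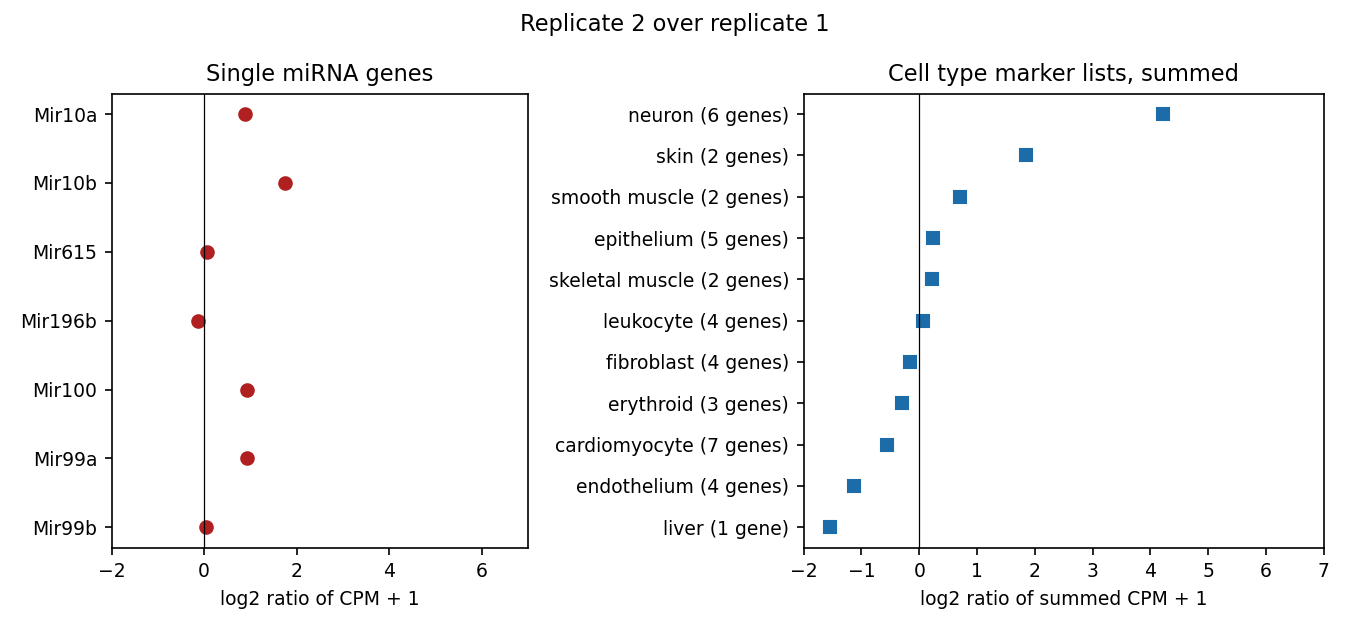
Log2 ratio of replicate 2 over replicate 1 for the tested Hox cluster genes and the miR-99 and miR-100 genes (left, CPM + 1) and for the summed level of each cell type marker list (right, summed CPM + 1). Mir10b (1.74), Mir10a (0.88), Mir100 (0.94) and Mir99a (0.92) lie to the right of 0, as do the neuron, skin and smooth muscle lists, and the endothelial, cardiomyocyte and liver lists lie to the left.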

How the data were processed

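The 2 small RNA libraries of heart were counted by the submitters. The deposited values are raw read counts per miRNA gene on the mm10 assembly with GENCODE M21, per the description files deposited beside the tables. The aligner is not given in the sources used here. Each table has 3 count columns (without regard to strand, sense and opposite strand). Which column is which strand was read from the values. The totals leave out 4 lines that count reads given to no gene. In the sense column these took 14.1% and 13.1% (unmapped), 38.1% and 42.3% (multi-mapped) and 4.01% and 3.70% (unassigned) of all reads in replicates 1 and 2. Ambiguous reads arose only without regard to strand (11.4% and 8.25%). Reads of CAST alleles can differ from the assembly, and their loss was not tested.

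CPM are sense counts per 1000000 of the library's summed sense counts. Log2 ratios use a pseudocount of 1 CPM and are given as replicate 2 over replicate 1. A gene's count joins both arms of its hairpin. Fisher's exact test (scipy 1.17.1) was run on all 441 genes with 10 or more counts over both libraries and adjusted over all of them by the Benjamini-Hochberg method. Its smallest p was written as 1e-300. The quasi-likelihood test of edgeR could not be fitted with 2 libraries of the same group. edgeR 4.0.16 gave TMM scaling and an exact test whose common dispersion came from 344 genes (at least 10 counts in both libraries), and DESeq2 1.42.0 gave size factors. Alternatives were the strand setting, the library total, both scalings, pseudocounts of 0.1 and 10 CPM, no count minimum, edgeR's exact test and leaving out each library.

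The genes named are the 6 members, other miRNA genes between the outermost Hox genes, genes with a member's seed, Mir99a, Mir99b and Mir100, the 3 nearest genes by level, neighbouring Hox genes and the marker lists. The members and lists were chosen with earlier results of these data known. A search for seed matches in Hox 3′ untranslated regions is not reported here.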

Additional observations from a re-analysis of the deposited data

How the results depend on the processing

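Mir10a and Mir10b had a log2 ratio above 0 with both scalings, both other pseudocounts and counts without regard to strand. It ranged from 0.76 (without regard to strand) to 1.18 (TMM) for Mir10a and from 1.63 to 2.05 for Mir10b. Both genes passed the threshold in each of these settings but not by edgeR's exact test, which adds a spread between libraries. There the same TMM log2 ratios of 1.18 and 2.05 had adjusted p-values of 1 and 0.434. edgeR's exact test called 0 of the members and 2 of 441 genes, against 2 and 251 by Fisher's exact test. TMM scaling shifted the median log2 ratio by 0.30 and DESeq2 size factors by 0.27. The split of called genes was 90 higher and 161 lower in replicate 2 as scaled by totals, 135 and 106 with TMM and 130 and 111 with DESeq2 size factors. The log2 ratio of Mir196b turned to 0.17 with TMM, the value also used with edgeR's exact test, and to 0.14 with DESeq2 size factors. That of Mir615 turned to -0.03 (-0.0349) without regard to strand, where the library totals differ. None of these passed the threshold. With all reads as the total the summed level of the 6 genes was 853 CPM instead of 2043 CPM. Leaving out each replicate gave 1198 to 2888 CPM, and a log2 ratio of Mir10b to Mir10a of -0.44 to 0.43, so its sign rests on which library is read. No paired analysis was possible because the libraries form a single group. Depth limits Mir615, Mir196a-1 and Mir196a-2, which had 21 counts or fewer in each library. Mir196a-1 and Mir196a-2 are also limited by reads that match both genes, which more depth would not assign.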

Other observations

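Hox mRNAs were not measured here, but the sequences of the miRNAs can be set against the annotated Hox 3′ untranslated regions (GENCODE M21, the longest one of each protein-coding gene). A match is a description of the letters and no evidence of a working site.

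Matching bases were counted without gaps, and only the best window of each Hox region was kept. Among the Hox regions searched, the most matching bases were those of miR-196a-5p in Hoxb8, a gene of the cluster that also holds Mir196a-1. There 21 of 22 bases match the full complement, and the same site matches that of miR-196b-5p at 20 of 22 bases. The best window for miR-196a-5p in the other Hox regions searched, that of Hoxd8, matches at 15 bases. The best ones for miR-10a-5p and miR-615-3p match at 14. How many matches regions of this length would hold by chance was not measured. The site and the full complement of miR-196a-5p are printed 5′ to 3′ as DNA, and differ by A18G, counted from 1 at their 5′ ends with the full complement's base first.
Hoxb8 site: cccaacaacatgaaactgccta
full complement: cccaacaacatgaaactaccta

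The difference lies opposite the seed, where the G of the site faces a U of miR-196a-5p. A G opposite a U can still pair as a wobble, and the counts of matching bases leave such pairs out. The miR-196 seed, AGGUAGU, is also found 1 base further in from the 5′ end in 11 other miRNA genes of the RefSeq table, 9 let-7 genes, Mir98 and Mir1961, which thereby have another seed.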
